A study of Mus musculus with 6 samples.

Results

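The variable (V) segments of the T cell receptor alpha chain (Trav) and beta chain (Trbv) were examined in RNA sequencing of 6 libraries of mouse regulatory T cells. Members were the genes whose Ensembl ID carried a symbol starting with Trav or Trbv and whose deposited value was above 0 in at least 1 library. There were 121 such segments of 163 annotated ones, among 47069 genes with an Ensembl ID. They comprised 94 of 128 Trav and 27 of 35 Trbv segments. Values are FPKM, the number of fragments divided by gene length and by library size. A share is a segment's FPKM as a percentage of the summed Trav or Trbv FPKM of its library.

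The tested libraries came from Foxp3CreNoc4lfl/fl mice (cKO, conditional knockout) and the control libraries from Foxp3CreNoc4l+/fl mice (Het), so both carry Cre driven from Foxp3, the gene that defines regulatory T cells, and at least 1 floxed Noc4l allele. CD4+GFP+CD62Lhigh cells from lymph node and spleen were stimulated with Dynabeads for 72 h or 48 h. There were 2 libraries of each genotype at 72 h and 1 at 48 h, called cKO 2, cKO 4, Het 1 and Het 3 at 72 h and cKO 2 and Het 1 at 48 h after their replicate numbers. Replicates 1 and 2 shared 1 deposited table, and replicates 3 and 4 another, and nothing in the labels says whether libraries came from separate animals, so p-values measure only the spread between these libraries. Levels set across the 2 tables rest on tables that were made separately.

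A receptor chain is assembled in the thymus by joining a V segment to a J segment (and, in beta chains, a D segment between them), and the joined exon is spliced to a constant gene. The 3′ end of the V segment starts the third complementarity-determining region (CDR3), the loop that faces the peptide. Regulatory T cells are a polyclonal population, so their RNA holds many V segments at once, and the expansion of a few clones would raise the shares of a few segments. The share of a V segment in RNA counts cells and the transcript level per cell together, and in bulk samples fewer cells of a type and less RNA per cell cannot be told apart.

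The sequences below are the 3′ ends of the beta segments that the shares turn on: the 6 with the largest mean shares, and Trbv12-1, Trbv29 and Trbv26, whose shares differed in 1 direction between genotypes in all 3 pairs. Each is the last 48 bases of the coding sequence in the GENCODE M21 annotation, with capitals from the codon of the conserved cysteine to the end of the segment, the germline start of CDR3.
Trbv13-2: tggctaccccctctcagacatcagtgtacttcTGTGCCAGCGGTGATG
Trbv1: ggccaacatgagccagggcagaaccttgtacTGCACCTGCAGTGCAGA
Trbv3: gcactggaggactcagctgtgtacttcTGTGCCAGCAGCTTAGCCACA
Trbv20: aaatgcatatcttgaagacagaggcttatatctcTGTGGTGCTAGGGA
Trbv16: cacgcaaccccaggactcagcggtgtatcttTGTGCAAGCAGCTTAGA
Trbv31: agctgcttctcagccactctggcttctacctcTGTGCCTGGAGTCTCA
Trbv12-1: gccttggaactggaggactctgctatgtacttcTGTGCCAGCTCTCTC
Trbv29: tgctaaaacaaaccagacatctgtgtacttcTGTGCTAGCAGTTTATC
Trbv26: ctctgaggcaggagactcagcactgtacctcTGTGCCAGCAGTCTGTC

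Many alpha segments, in contrast, have near-identical copies, whose symbols carry a d or an n after the family number. Over the last 280 bases, 38 of the 128 annotated Trav segments were identical to another Trav segment. Of these, 27 were listed at 0 in every library, and all 38 stayed under 1 FPKM in every library. Among the 36 segments that differed from their closest copy at 1 to 5 bases, 4 were listed at 0 in every library, as were 3 of the 54 that differed at more than 5. No Trbv segment had an identical copy. How reads that match several copies were handled is not given in the sources used here, so a low value of a copied segment is uncertain. The Trav14 copies show this: Trav14d-1 and Trav14n-1 are identical over 280 bases and reached at most 0.222 and 0.111 FPKM in any library, while Trav14-1, with 11 differences from Trav14d-1, averaged 5.97 FPKM over the 6 libraries. Their last 60 bases follow, with the 2 bases that differ among them in capitals.
Trav14d-1: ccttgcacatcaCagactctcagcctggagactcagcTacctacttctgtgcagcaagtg
Trav14n-1: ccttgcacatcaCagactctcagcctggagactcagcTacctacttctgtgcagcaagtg
Trav14-1: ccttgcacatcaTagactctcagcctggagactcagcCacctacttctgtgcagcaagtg

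The libraries held an estimated 16.5 to 28.8 M fragments, of which 2094 to 3113 lay on Trav and 3380 to 7059 on Trbv segments. Noc4l, the targeted gene, went against the labels, with the higher level on the cKO side of every pair: 81.7 FPKM in cKO 2 against 48.8 in Het 1 and 58.1 in cKO 4 against 40.8 in Het 3 at 72 h, and 124 in cKO 2 against 99.1 in Het 1 at 48 h. Every direction below is therefore that of the libraries labelled cKO. Of the 5 regulatory T cell markers, Foxp3 lay between 147 and 336 FPKM and Il2ra, the alpha chain of the interleukin-2 receptor, between 1142 and 1554 FPKM.
Markers of other cells differed between libraries. The summed level of 10 myeloid markers was 267 and 10.5 FPKM in cKO 2 and cKO 4 against 6.01 and 3.62 in Het 1 and Het 3 at 72 h, and 331 FPKM in cKO 2 against 3.60 in Het 1 at 48 h. The neutrophil gene S100a9 was listed at 0 in cKO 4, Het 1 and Het 3 at 72 h. Most of the myeloid sum of cKO 4 was Cd68, at 10.2 FPKM against 2.90 in Het 3. The 8 markers of CD8 T and NK cells summed to 297 and 120 FPKM in cKO 2 and cKO 4 against 80.3 and 14.4 in Het 1 and Het 3 at 72 h, and to 42.4 FPKM in cKO 2 against 30.3 in Het 1 at 48 h. Cd8a stood at 39.0 and 2.24 FPKM in cKO 2 and cKO 4, against 20.3 and 1.01 in Het 1 and Het 3 at 72 h. Most of this sum in cKO 4 was Nkg7, at 89.1 FPKM, and Gzma, at 22.8, against 6.48 and 1.92 in Het 3. Cd8b1 stood at 4.47 FPKM in cKO 4 against 4.69 in Het 3. The 10 B cell markers summed to 266 to 511 FPKM in the cKO and 165 to 325 FPKM in the Het libraries, most of it Ighm, whereas Pax5 reached 25.2 FPKM in cKO 2 at 72 h and at most 5.68 in the other libraries. The 6 erythroid markers summed to 1.45 to 30.9 FPKM in the cKO and 1.74 to 27.0 FPKM in the Het libraries, and the 3 measured of 5 gamma delta T cell markers to 0.864 to 5.74 FPKM in the cKO and 0.487 to 0.798 FPKM in the Het libraries.

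All 6 libraries used a broad set of beta segments. Trbv13-2 (the older Vβ8.2) held the largest mean share, 13.3% ± 1.39 (SD over the 6 libraries). It was followed by Trbv1 (Vβ2) at 9.73% ± 2.60, Trbv3 (Vβ16) at 8.99% ± 0.861, Trbv20 (Vβ15) at 8.28% ± 0.804, Trbv16 (Vβ11) at 7.53% ± 0.652 and Trbv31 (Vβ14) at 6.14% ± 0.631. Only between Trbv13-2 and Trbv1 and between Trbv16 and Trbv31 was the gap larger than the SD of both neighbours.
Trbv13-2 held 14.4% and 12.2% in cKO 2 and cKO 4 against 11.4% and 13.1% in Het 1 and Het 3 at 72 h, and 15.1% in cKO 2 against 13.7% in Het 1 at 48 h. The genotypes overlapped, and so did the times. Its relatives Trbv13-1 and Trbv13-3, which match it at 88.2% and 91.4% of the last 280 bases, had mean shares of 5.55% ± 0.773 and 5.03% ± 0.911. Between these and the 3% mark stood Trbv2, Trbv12-2, Trbv19, Trbv15, Trbv12-1, Trbv26 and Trbv29, from 5.21% down to 3.39%.
At the other end, Trbv4 (Vβ10), Trbv5 (Vβ1), Trbv21 (Vβ19) and Trbv12-3 stayed under 1 FPKM in every library. Trbv10 and Trbv18, both annotated as pseudogenes, were above 0 in a single library each. The 5 Trbv segments annotated as pseudogenes together held 0.347% to 0.541% of a library, and Trbv24 (Vβ17) was the only one of them with a mean above 1 FPKM.

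**Figure D1:**
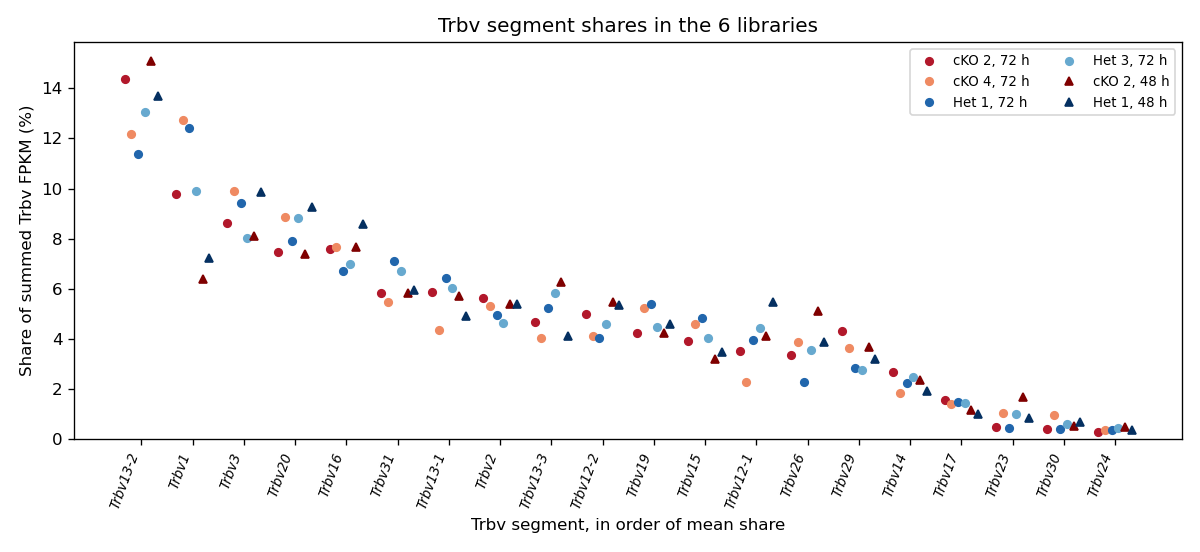
Share of the summed Trbv FPKM (%, y axis) of the 20 Trbv segments with a mean of at least 1 FPKM (x axis, in order of mean share) in each of the 6 libraries; circles are 72 h and triangles 48 h. Trbv1 is the segment whose 48 h libraries sit below all 72 h libraries by the widest margin, at 6.38% and 7.21%.

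Alpha shares were spread more thinly. Trav3-3 had the largest mean share, 6.08% ± 1.29 (SD over the 6 libraries), with 5.93% and 4.94% in cKO 2 and cKO 4 against 7.67% and 4.87% in Het 1 and Het 3 at 72 h, and 7.69% in cKO 2 against 5.37% in Het 1 at 48 h. The genotypes and the times overlapped. Trav7-4 at 4.26% ± 0.789, Trav4-4-dv10 at 3.81% ± 1.05, Trav13-1 at 3.43% ± 0.792 and Trav8-1 at 3.36% ± 0.632 came next, and no neighbours among these 4 differed by more than their SD. The other Trav segments with a mean share of at least 2% were Trav14n-3, Trav5-4, Trav12-2, Trav16n, Trav9-1, Trav7-5, Trav12-3, Trav10, Trav6-7-dv9 and Trav7d-4, from 3.18% down to 2.08%.
Several of these have a close copy. Trav7-4 differs from Trav7d-4 at 1 of the 280 bases compared, Trav8-1 from Trav8d-1 at 3, Trav3-3 from Trav3n-3 at 4 and Trav14n-3 from Trav14-3 at 5, so the split between the members of such a pair is uncertain. Taken as groups, the 23 d copies held 9.81% and 12.1% of the Trav sum in cKO 2 and cKO 4 against 14.5% and 13.3% in Het 1 and Het 3 at 72 h, and 16.3% in cKO 2 against 11.7% in Het 1 at 48 h. The 18 n copies held 9.94% to 12.97%. The 12 Trav segments annotated as pseudogenes held 0.769% to 1.88%.

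**Figure D2:**
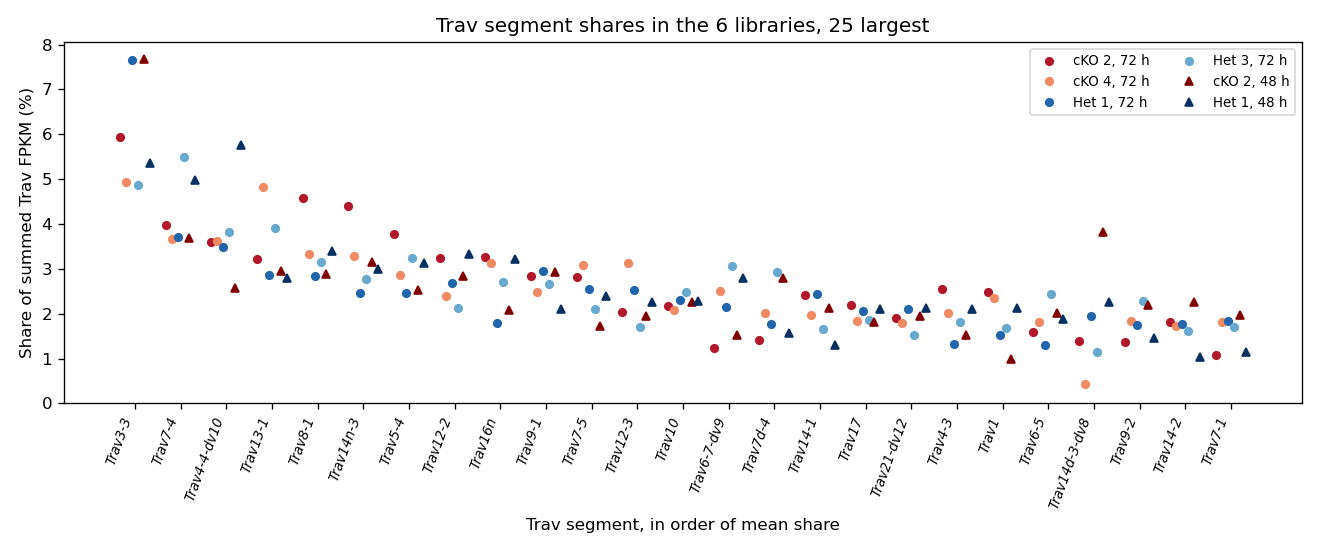
Share of the summed Trav FPKM (%, y axis) of the 25 Trav segments with the largest mean share (x axis) in each of the 6 libraries; circles are 72 h and triangles 48 h. No segment exceeds 7.69% of a library, and Trav14d-3-dv8 lies between 0.432% and 3.83%.

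The first question was whether the repertoire was as broad in cKO as in Het libraries. Breadth was the effective number of segments, the exponential of the Shannon entropy of the shares, which equals the number of segments when all are used equally. For Trav it was 51.4 and 51.4 in cKO 2 and cKO 4 against 53.6 and 52.6 in Het 1 and Het 3 at 72 h, and 51.6 in cKO 2 against 50.5 in Het 1 at 48 h. The means were 51.5 ± 0.139 in cKO and 52.2 ± 1.58 in Het libraries (SD, n = 3 each), and the difference of -0.744 gave p = 0.4 in a two-sided exact permutation test over the 6 libraries. For Trbv it was 16.1 and 15.9 in cKO 2 and cKO 4 against 15.8 and 16.3 in Het 1 and Het 3 at 72 h, and 16.4 in cKO 2 against 16.0 in Het 1 at 48 h.
The Trbv means were 16.1 ± 0.294 in cKO and 16.0 ± 0.255 in Het libraries (SD, n = 3 each), with p = 0.7 in the same exact permutation test. With 3 libraries against 3, the smallest p this exact permutation test allows is 0.1. In each library 15 to 18 Trav segments, or 5 to 6 Trbv segments, made up 50% of the chain. Segments above 0 numbered 81 and 78 Trav in cKO 2 and cKO 4 against 74 and 77 in Het 1 and Het 3 at 72 h, and 71 in cKO 2 against 72 in Het 1 at 48 h. For Trbv they numbered 24 to 26.

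The second question was whether libraries resembled each other by genotype, by time or by table. Similarity was the Bray-Curtis distance, the percentage of share that would have to move to turn one library's profile into another's. Over the 15 pairs of libraries it was 12.04% to 19.7% (median 15.4%) for Trav and 6.14% to 13.2% (median 8.19%) for Trbv. The chi-square statistic per degree of freedom on estimated fragments was 1.81 to 4.66 for Trav and 3.04 to 12.1 for Trbv. Such fragments are estimates and PCR-amplified, not independent molecules, so values above 1 are no test of a difference between libraries.
Mean distances within a genotype were not smaller than those between genotypes. For Trav the mean distance was 15.7% within a genotype and 14.8% between genotypes (two-sided exact permutation p = 0.6), and for Trbv it was 9.38% within and 8.66% between (exact permutation p = 0.6). By time, Trbv distances averaged 8.0% within a time and 9.78% between times (exact permutation p = 0.133), and Trav distances 15.2% and 15.1% (exact permutation p = 0.933). By table, the within minus between difference was -0.964 for Trav (exact permutation p = 0.467) and 0.970 for Trbv (exact permutation p = 0.4). These are 6 tests. With only 20 arrangements of the libraries by genotype and 15 by time or by table, none of them could give a p under 0.05. The absence of such a p-value therefore decides nothing about grouping.
In Trav shares, the replicate numbers did not mark the closest libraries: cKO 2 at 72 h lay nearest to Het 1 at 48 h, at 12.2%, and Het 1 at 72 h nearest to cKO 2 at 48 h, at 12.04%. The same-numbered libraries of the 2 times were 17.5% apart for cKO 2 and 14.6% apart for Het 1. In Trbv shares the closest pair was cKO 2 and Het 3 at 72 h, at 6.14%, and the farthest was Het 1 at 72 h and cKO 2 at 48 h, at 13.2%. Here cKO 2 at 48 h lay nearest to cKO 2 at 72 h, at 6.81%, while Het 1 at the 2 times was 12.1% apart.

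**Figure D3:**
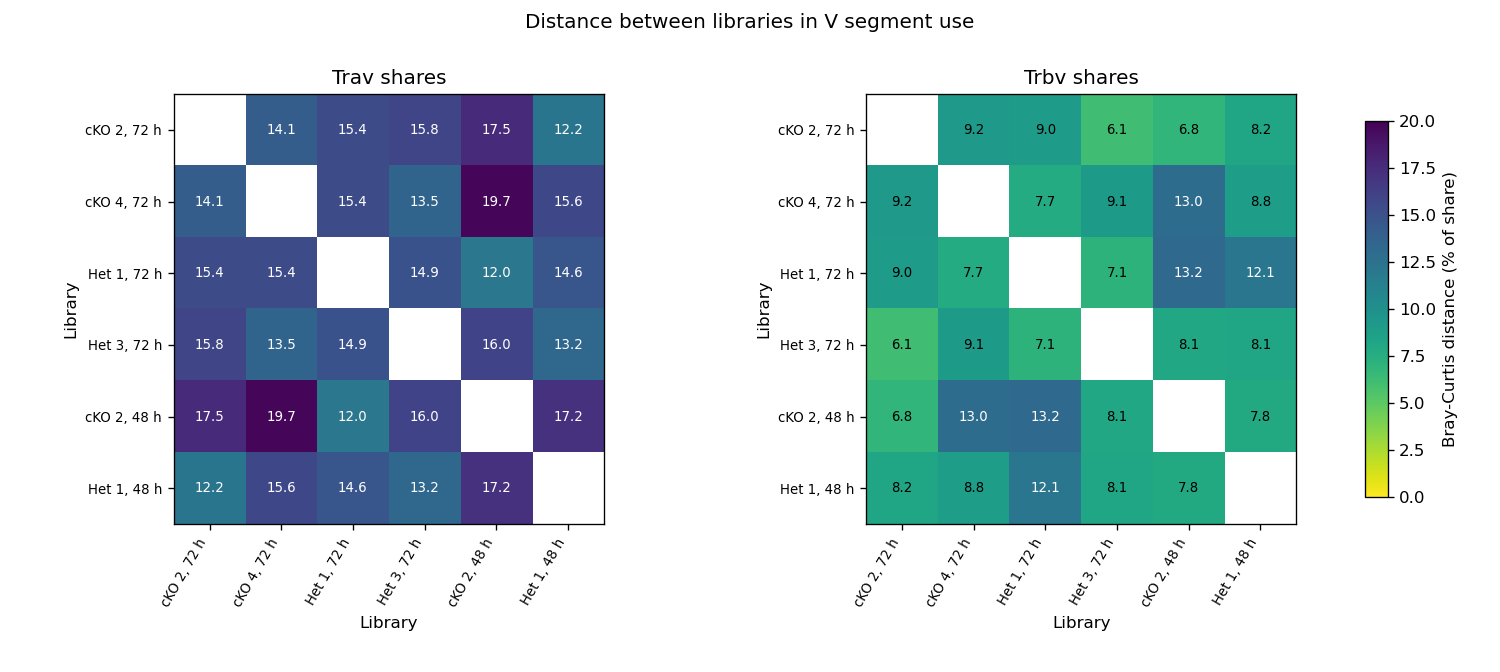
Bray-Curtis distance (% of share, colour scale and printed values) between each pair of the 6 libraries for Trav shares (left) and Trbv shares (right); rows and columns are the libraries. Trav profiles lie 12.04% to 19.7% apart and Trbv profiles 6.14% to 13.2%, and no block of small distances follows genotype.

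The summed level of the beta segments was lower in both cKO than in both Het libraries at 72 h. Summed Trbv stood at 413 and 517 FPKM in cKO 2 and cKO 4 against 637 and 742 FPKM in Het 1 and Het 3 at 72 h, and at 418 FPKM in cKO 2 against 424 FPKM in Het 1 at 48 h. At 72 h the groups did not overlap, with cKO over Het ratios of 0.649 and 0.697, while the 48 h ratio was 0.986. Summed Trav stood at 252 and 339 FPKM in cKO 2 and cKO 4 against 333 and 337 FPKM in Het 1 and Het 3 at 72 h, and at 267 FPKM in cKO 2 against 281 FPKM in Het 1 at 48 h, and the genotypes overlapped at 72 h.

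Segment by segment, levels were tested with limma on log2(FPKM + 1) over the 12488 genes whose mean in the 4 libraries at 72 h reached 1 FPKM, a scale that understates changes of low genes. Of the members, 60 Trav and 20 Trbv passed this filter. No member passed at a Benjamini-Hochberg adjusted p under 0.05, and neither did any other gene (0% called). At an unadjusted p under 0.05, 14 of the 20 Trbv segments were lower in cKO and 0 were higher, against 6.99% of all genes lower and 10.3% higher. All 20 had a log2 fold change (cKO over Het) below 0, against 39% of all genes below and 61% above, with a median of -0.51 against 0.08 over all genes. In FPKM, 16 of the 20 were lower in both cKO libraries than in either Het library, against 13.7% of all genes. The Trbv segments share a locus, an RNA and these 4 libraries, so their counts are not independent.
The smallest p belonged to Trbv31, the beta segment that lies in inverted orientation behind the constant genes. It stood at 24.0 and 28.2 FPKM in cKO 2 and cKO 4 against 45.4 and 49.7 FPKM in Het 1 and Het 3 at 72 h, and at 24.4 FPKM in cKO 2 against 25.2 in Het 1 at 48 h. Its log2 fold change at 72 h was -0.84 ± 0.13 (SE, limma adjusted p = 0.129). The groups were apart at 72 h and close together at 48 h.
Trbv13-3 had 19.3 and 20.9 FPKM in cKO 2 and cKO 4 against 33.3 and 43.3 FPKM in Het 1 and Het 3 at 72 h, and the opposite order at 48 h, with 26.2 FPKM in cKO 2 and 17.5 in Het 1. Its log2 fold change at 72 h was -0.88 ± 0.14 (SE, limma adjusted p = 0.139). Trbv13-1 had 24.3 and 22.4 FPKM in cKO 2 and cKO 4 against 40.8 and 44.6 FPKM in Het 1 and Het 3 at 72 h, with -0.84 ± 0.14 (SE, limma adjusted p = 0.144), and the opposite order at 48 h, with 24.0 FPKM in cKO 2 and 20.9 in Het 1. Both paralogs of Trbv13-2 thus lay apart by genotype at 72 h without passing the threshold.
Trbv12-1 had 14.5 and 11.7 FPKM in cKO 2 and cKO 4 against 25.1 and 32.8 FPKM in Het 1 and Het 3 at 72 h, and 17.2 FPKM in cKO 2 against 23.1 in Het 1 at 48 h. With a log2 fold change at 72 h of -1.08 ± 0.21 (SE, limma adjusted p = 0.167), it was the only Trbv segment tested whose 3 cKO libraries all lay below its 3 Het libraries, against 3.66% of all genes (5.79% in the other direction). Of the 60 Trav segments, 6 (10%) were lower and 0 higher at an unadjusted p under 0.05. Over all genes 6.99% were lower and 10.3% higher, so the share of lower Trav segments was near that of all genes. The median log2 fold change of the 60 was -0.21. By pair, the median was -0.42 in the pair cKO 2 and Het 1, with 49 of 60 lower, and -0.01 in the pair cKO 4 and Het 3, with 31 of 60 lower, against 43.9% and 37.8% of all genes lower. Among the 6, Trav6-1 had 0.867 and 1.80 FPKM in cKO 2 and cKO 4 against 3.53 and 3.89 FPKM in Het 1 and Het 3 at 72 h, and a difference of -1.04 ± 0.23 on the log2 scale (SE, limma adjusted p = 0.193). These values rest on 7 and 10 estimated fragments in cKO 2 and cKO 4 and on 25 and 32 in Het 1 and Het 3. At 48 h the order of Trav6-1 was the opposite, with 3.02 FPKM in cKO 2 and 1.65 in Het 1.

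The constant genes of the beta chain, to which every joined Trbv exon is spliced, had the same order. Trbc1 stood at 253 and 221 FPKM in cKO 2 and cKO 4 against 351 and 331 FPKM in Het 1 and Het 3 at 72 h, and differed by -0.53 ± 0.12 on the log2 scale (SE, limma adjusted p = 0.201). Trbc2 stood at 394 and 312 FPKM in cKO 2 and cKO 4 against 538 and 472 FPKM in Het 1 and Het 3, with -0.52 ± 0.13 (SE, limma adjusted p = 0.206). At 48 h Trbc1 was at 226 FPKM in cKO 2 against 236 in Het 1, and Trbc2 at 387 against 386.
The other genes of the receptor complex lay nearer to 0 or above it. Trac, the alpha constant gene, had a log2 fold change at 72 h of -0.05 ± 0.12, Cd3e of 0.15 ± 0.12 and Cd3g of 0.17 ± 0.14 (SE, n = 2 each). The co-receptor gene Cd4 had 0.30 ± 0.12 (SE, limma adjusted p = 0.32). None of the 8 genes of the complex passed the threshold.
The summed CD8 T and NK, B cell and myeloid markers given above were each higher in the cKO library of every pair, and their part in the Trbv levels was not tested. In the pair cKO 4 and Het 3 these sums rested mostly on Nkg7, Gzma, Ighm and Cd68. Cd8b1, Cd79b, Pax5, Ngp, Adgre1 and Itgam were lower in cKO 4 than in Het 3. At 72 h the Trbv median was -0.50 in the pair cKO 2 and Het 1 and -0.46 in the pair cKO 4 and Het 3. In these pairs 20 and 19 of 20 segments were lower in the cKO library, against 43.9% and 37.8% of all genes.

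**Figure D4:**
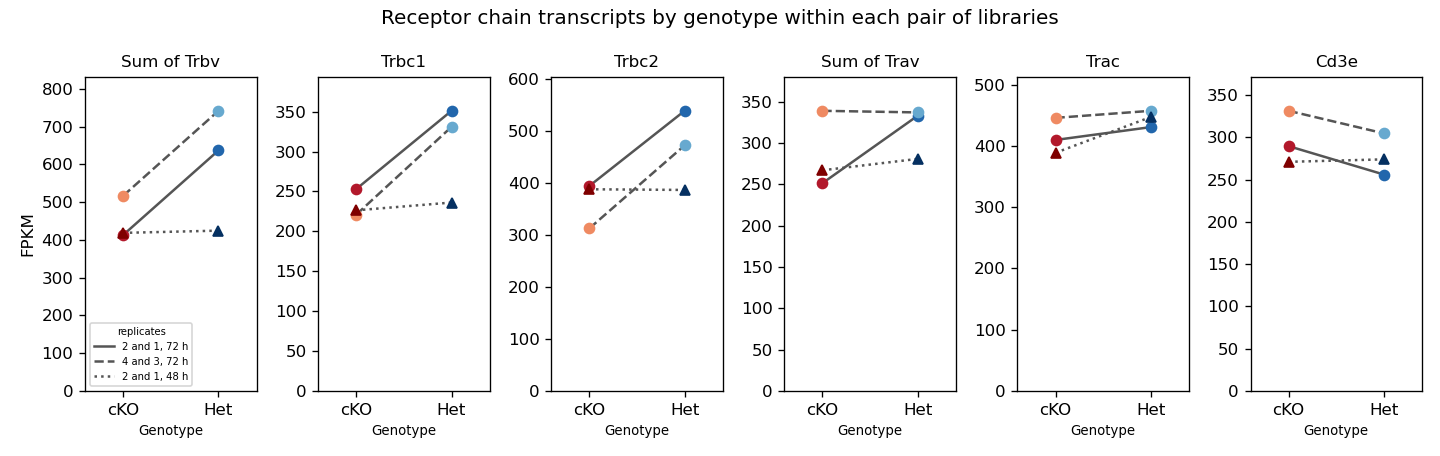
FPKM (y axes, from 0) of summed Trbv, Trbc1, Trbc2, summed Trav, Trac and Cd3e, with each cKO library left of the Het library of the same table and time (x axes); lines join the pair, circles are 72 h and triangles 48 h. Summed Trbv, Trbc1 and Trbc2 are lower in cKO in both 72 h pairs and nearly level at 48 h, while Trac lies between 389 and 457 FPKM throughout.

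At 48 h, with 1 library per genotype and hence no test, 10 Trbv segments were higher and 10 lower in cKO, with a median log2 ratio of -0.00. Whether the genotype difference itself differed between the times was tested with an interaction term over all 6 libraries and 12394 genes. Since 48 h has 1 library per genotype, the spread behind this term comes only from the 72 h libraries and from the spread limma shares across genes. The Trbv median of this term was -0.53 against 0.09 over all genes, and 19 of 20 were below 0 against 40% of all genes. No member and no other gene passed at an adjusted p under 0.05. At an unadjusted p under 0.05, 4 Trbv segments were below 0 and 0 above, against 2.28% of all genes below and 3.43% above. Trbv13-3, which changed order between the times, had an interaction term of -1.44 ± 0.24 (SE, limma adjusted p = 0.742).
Averaged over both times, 18 of 20 Trbv segments had a log2 fold change below 0, against 41.1% of all 12394 genes below and 58.9% above, with a median of -0.33. None passed the adjusted threshold, and 6 had an unadjusted p under 0.05, all lower, against 5.28% of all genes lower and 8.04% higher. The 2 with the smallest p were Trbv20, with -0.51 ± 0.11, and Trbv12-1, with -0.85 ± 0.21 (SE, limma adjusted p = 0.343 for both). For Trav the median was -0.12, and 6 of 60 were lower at an unadjusted p under 0.05. They include Trav6-7-dv9, with -0.68 ± 0.19 (SE, limma adjusted p = 0.343).

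Shares remove the level of the chain and ask which segments differ relative to the others. Of the segments with a mean share of at least 0.5%, 3 of 19 Trbv were higher and 2 lower in the cKO library of all 3 pairs, as were 5 and 8 of 57 Trav. In FPKM, 23.5% of all 12394 genes were higher and 14.7% lower in the cKO library of all 3 pairs. That is FPKM and not share, so nothing is read from the counts of segments, and the shares that follow are values with no test.
Trbv29 (Vβ7) held 4.31% and 3.63% in cKO 2 and cKO 4 against 2.83% and 2.75% in Het 1 and Het 3 at 72 h, and 3.67% in cKO 2 against 3.18% in Het 1 at 48 h. Its 3 cKO shares all lay above its 3 Het shares. Its FPKM hardly differed at 72 h, at 17.8 and 18.8 FPKM in cKO 2 and cKO 4 against 18.0 and 20.4 in Het 1 and Het 3 (log2 fold change -0.06 ± 0.13, SE). At 72 h its share was thus high where the sum of the chain was low. At 48 h the sums were 418 FPKM in cKO 2 and 424 in Het 1, and Trbv29 itself was at 15.3 and 13.5 FPKM. The 95% Wilson intervals are for shares of estimated fragments, which are not divided by gene length, so they need not centre on the FPKM shares. At 72 h they were 3.30% to 4.52% in cKO 2 and 2.68% to 3.88% in cKO 4 against 2.12% to 2.97% in Het 1 and 2.14% to 2.87% in Het 3. The interval of cKO 4 overlaps those of both Het libraries, and all cover counting error only.
Trbv26 (Vβ3) and Trbv23 (Vβ20) also had higher shares in the cKO library of each pair. Trbv26 held 3.36% and 3.86% in cKO 2 and cKO 4 against 2.26% and 3.57% in Het 1 and Het 3 at 72 h, and 5.09% in cKO 2 against 3.89% in Het 1 at 48 h. The genotypes overlapped when the times were set side by side.
Trbv31 was the other way round, with 5.82% and 5.46% in cKO 2 and cKO 4 against 7.12% and 6.70% in Het 1 and Het 3 at 72 h, but 5.83% in cKO 2 against 5.94% in Het 1 at 48 h. All cKO shares lay below all Het shares, by a small margin at 48 h. Trbv12-1 held 3.52% and 2.27% in cKO 2 and cKO 4 against 3.94% and 4.42% in Het 1 and Het 3, and 4.12% in cKO 2 against 5.45% in Het 1 at 48 h. Its mean log2 share ratio over the 3 pairs was -0.51, with -0.96 in the pair cKO 4 and Het 3 and -0.16 in the pair cKO 2 and Het 1 at 72 h.

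Among the Trav segments, Trav6-7-dv9, which can also be joined in delta chains, had the lowest mean log2 share ratio of those with 1 sign in the 3 pairs, a mean share of at least 0.5% and a value above 0 in every library, -0.66. It held 1.23% and 2.51% in cKO 2 and cKO 4 against 2.16% and 3.06% in Het 1 and Het 3 at 72 h, and 1.53% in cKO 2 against 2.81% in Het 1 at 48 h. The groups overlapped, since cKO 4 exceeded Het 1 at 72 h.
Trav6d-5 (-0.55), Trav8d-1 (-0.44), Trav15-1-dv6-1 (-0.29) and Trav3-1 (-0.27) also had negative mean log2 share ratios with 1 sign in the 3 pairs. Trav13n-1 was lower in each pair as well, but has no mean ratio because it was listed at 0 in cKO 4 at 72 h, against 0.405% in Het 3. It differs from Trav13d-1 at 1 of 280 bases, so that 0 is uncertain. Trav13-2 (0.52), Trav14-2 (0.41), Trav14n-3 (0.39), Trav14-3 (0.30) and Trav13-1 (0.18) had positive ones. Of these 5, 3 belong to the Trav14 and 2 to the Trav13 family, but other members of both families went the other way. Trav14d-3-dv8 had a mean log2 share ratio of -0.38, and Trav13n-1 was lower in each pair, so no family pattern is read from them.
Of the segments with a mean share of at least 0.5% and a value above 0 in every library, Trav14d-3-dv8 had the highest fold between its highest and lowest library, 8.85 times. It held 1.39% and 0.432% in cKO 2 and cKO 4 against 1.95% and 1.15% in Het 1 and Het 3 at 72 h, and 3.83% in cKO 2 against 2.25% in Het 1 at 48 h. Both 48 h libraries lay above the 4 libraries at 72 h. Its Wilson interval, for the share of estimated fragments and not of FPKM, was 0.294% to 0.938% in cKO 4 at 72 h, which rests on 11 fragments. In cKO 2 at 48 h it was 3.81% to 5.53%. Over all such segments the median of the highest over the lowest library was 1.88 for 56 Trav and 1.48 for 19 Trbv segments.

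**Figure D5:**
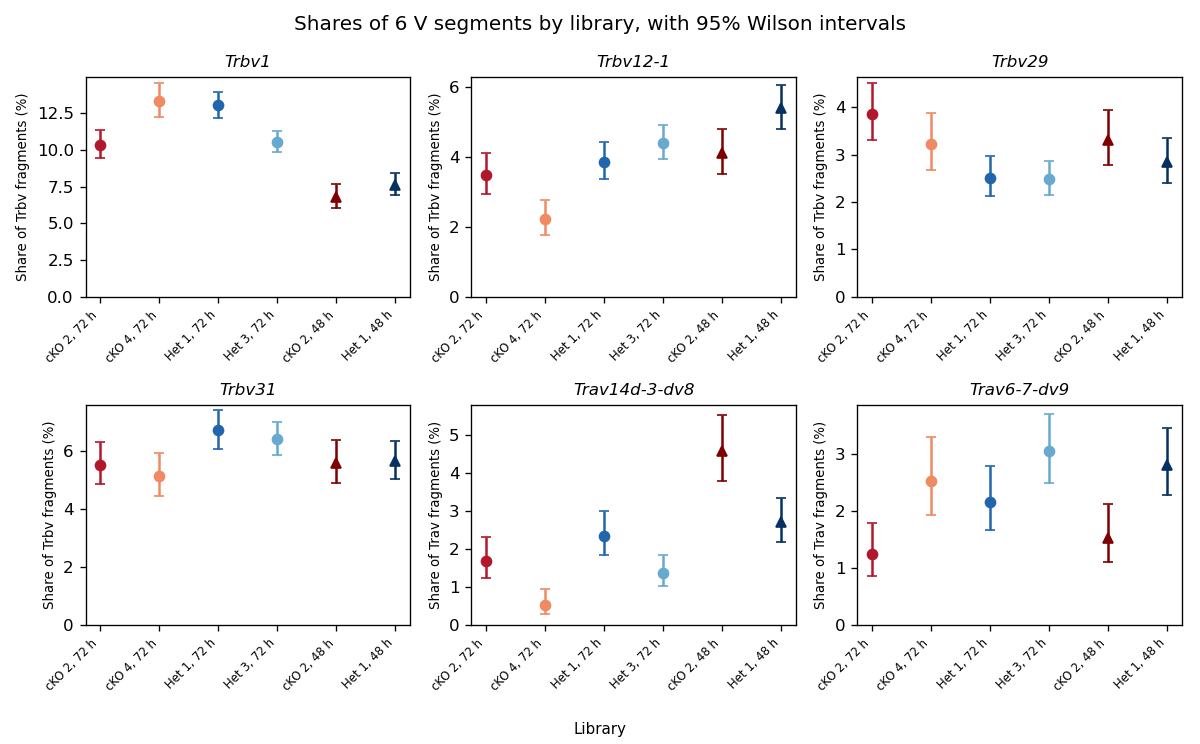
Share of the estimated fragments of the chain (%, y axes from 0) with 95% Wilson intervals (bars, counting error only) for 6 named segments in each library (x axes); circles are 72 h and triangles 48 h. Trbv1 is lower at 48 h in both genotypes, and Trav14d-3-dv8 is lowest in cKO 4 at 72 h. Trbv29 shares are higher in every cKO than in every Het library, but at 72 h the cKO 4 interval overlaps both Het intervals.

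Between the times, Trbv1 stood out. Its level was 40.4 and 65.7 FPKM in cKO 2 and cKO 4 and 79.1 and 73.4 FPKM in Het 1 and Het 3 at 72 h, against 26.7 FPKM in cKO 2 and 30.6 FPKM in Het 1 at 48 h. Its share was 9.78%, 12.7%, 12.4% and 9.89% in these 72 h libraries, against 6.38% and 7.21% in the 48 h libraries. All 4 libraries at 72 h lay above both at 48 h on either measure. The log2 fold change (72 h over 48 h) was 0.96 ± 0.23 (SE, limma adjusted p = 0.331), so the difference did not pass the threshold over all genes.
Trbv17 (Vβ9), with 0.66 ± 0.22, and Trbv15 (Vβ12), with 0.63 ± 0.21, were also higher at an unadjusted p under 0.05, and Trbv23, with -0.88 ± 0.35, was lower (SE). These made 3 higher and 1 lower of 20 Trbv segments, against 6.45% of all genes higher and 4.63% lower. In FPKM, 5 of the 20 Trbv segments were higher in every 72 h than in every 48 h library and 0 lower, against 17.1% and 11.8% of all genes. No V segment passed the adjusted threshold, against 0.0242% of all genes, 3 in number. By sign, 15 of 20 Trbv segments were above 0 and 5 below, against 50.2% and 49.8% of all genes, with a median of 0.24. In the same-numbered libraries the median log2 ratio of 72 h over 48 h was -0.02 in cKO 2 and 0.42 in Het 1. Summed Trbv at 72 h was 1.5 times that at 48 h in Het 1 and 0.987 times in cKO 2. For Trav the median was 0.06.

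The segments that mark invariant T cells were looked at singly. Trav11 and Trav11d join to Traj18 in the receptor of invariant NKT cells, which see lipids on CD1d. Trav11 was above 0 only in Het 1 at 72 h, at 0.139 FPKM, which is 1 fragment, and Trav11d reached at most 0.355 FPKM, in cKO 4 at 72 h. The 2 segments differ at 2 of 280 bases, so these low values are uncertain. Traj18 itself stood at 11.4 to 22.1 FPKM, but it is also joined to other V segments.
Trav1 joins to Traj33 in MAIT cells, which see microbial metabolites on MR1. Trav1 stood at 6.22 and 7.99 FPKM in cKO 2 and cKO 4 against 5.05 and 5.64 FPKM in Het 1 and Het 3 at 72 h, and at 2.66 FPKM in cKO 2 against 5.96 in Het 1 at 48 h. Traj33 stood at 10.3 and 14.9 FPKM in cKO 2 and cKO 4 against 2.51 and 6.49 FPKM in Het 1 and Het 3 at 72 h, and at 7.01 FPKM in cKO 2 against 5.49 in Het 1 at 48 h. All 3 cKO values of Traj33 exceeded the 3 Het values, as did those of 5.79% of all genes (3.66% in the other direction). Its log2 fold change at 72 h was 1.39 ± 0.21 (SE, limma adjusted p = 0.132). Traj33, like Traj18, is also joined to other V segments, and Trav1 was lower in cKO 2 than in Het 1 at 48 h. Whether MAIT cells differed was not tested. Zbtb16, the transcription factor of both invariant lineages, stayed at or below 0.0834 FPKM in every library. Other NKT cell markers were not uniformly low. At 72 h Slamf7 stood at 12.6 FPKM in cKO 2 and 6.37 in Het 1, and at 2.82 in cKO 4 and 1.80 in Het 3. At 48 h it stood at 1.24 FPKM in cKO 2 and 0.642 in Het 1. Klrb1c and Klrb1a were highest in cKO 2 at 72 h, at 1.24 and 0.392 FPKM, and were listed at 0 in cKO 4. Whether NKT cells differed was not tested either.
The genes that join the segments were low. Rag1, a subunit of the recombinase, reached at most 0.412 FPKM and Rag2 at most 0.023 FPKM. Dntt, which adds bases at the joints, ranged between 0.290 and 2.39 FPKM. Lig4, Dclre1c, Prkdc, Xrcc4 and Nhej1, which repair DNA breaks in all cells, were measured at 2.74 to 12.9 FPKM, and none of the genes of this list that reached the filter passed the threshold. Trdc, the delta constant gene, stood at 2.96 and 0.833 FPKM in cKO 2 and cKO 4 against 0.581 and 0.426 FPKM in Het 1 and Het 3 at 72 h, and at 0.563 FPKM in cKO 2 against 0.530 in Het 1 at 48 h, far below Trac at 389 to 457 FPKM.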

How the data were processed

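RNA sequencing values were the FPKM that the authors deposited in 2 tables of 47427 and 47347 rows, 47347 shared. Per the labels' protocols, the SMART-Seq v4 low-input kit was used. Per the submitters' processing notes, HTSeq 0.6.1, TopHat2 2.0.12 and Bowtie2 2.2.3 were used with build mm9. Not given in the sources used here are their roles, the annotation, the strand setting and the handling of reads with several matches. Reads of overlapping or antisense genes cannot be told apart without strand. One passage of the labels gives both genotypes the same allele pair; groups follow each library's own genotype label.

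Of the 47069 shared rows with an Ensembl ID, 46488 matched a symbol. Symbols and sequences came from GENCODE M21, which is not on mm9, and coordinates were left out. Older Vβ names came from RefSeq. Fragments were estimated from FPKM and annotated transcript length: 84.6% to 85.3% of low values lay within 0.02 of a whole number, against 3.40% to 3.88% with lengths scrambled. They serve only for Wilson intervals (95%) and chi-square values between libraries, not for a test of genes.

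Linear models of log2(FPKM + 1), for genes averaging 1 FPKM or more, used limma 3.58.1 (R 4.3.3), with the table as a term and a variance trend, at a Benjamini-Hochberg adjusted p under 0.05. Scripts were tested on simulated data. Breadth and similarity used Python 3.11.15, numpy 2.4.6 and scipy 1.17.1. Alternatives covered the pseudocount (0.1 and 5), the filter, TPM and quantile scaling, scaling to the summed V segments, the variance trend, the table term, each library left out, the replicate block, and other measures of breadth and distance. Named segments were those with a mean share of at least 3% (Trbv) or 2% (Trav), up to 5 per direction with a share ratio of 1 sign in 3 pairs, those of invariant cells, and the gene lists. Segments named for a small p, a wide range or a low level (such as Trav6-1, Trbv17, Trav13n-1 and Trav14d-3-dv8) were chosen after their values were seen. Members and lists were chosen with earlier results of these data known.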

Additional observations from a re-analysis of the deposited data

How the results depend on the processing

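The lower Trbv level at 72 h kept its direction under each alternative except scaling to the summed Trbv. Its median log2 fold change was -0.43 with a pseudocount of 5, -0.47 without a filter, -0.55 with a mean of at least 5 FPKM and -0.58 with quantile normalization, and it ran between -0.50 and -0.46 with a library left out, where at 72 h no spread is left and no test can be made. Scaled to the summed Trbv, the median was 0.0255 at 72 h and 0.0061 over both times. That scaling by construction moves the median of all genes at 72 h to 0.59 and calls 7211 of 12420 genes. Under it 1 member passed, Trbv29 (log2 fold change 0.48, limma adjusted p = 0.0464), and Trbv1 stood at 0.0089. Trbv29 over both times was -0.036 with quantile normalization, and between -0.065 and 0.079 with a library left out.

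The small differences in breadth and similarity had no stable sign, and the cause was not tested. Trav breadth (cKO minus Het) was 0.0765 with families summed, and Trbv breadth -0.105 with Simpson's index. With a library left out, Trbv breadth ran between -0.0686 (without cKO 2 at 48 h) and 0.224. The within minus between genotype distance ran between -0.43 (without cKO 2 at 48 h) and 1.87 for Trav, and between -0.199 (without cKO 4) and 1.25 for Trbv. The within minus between table distance for Trbv ran between -0.884 (without Het 1 at 72 h) and 2.17.

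The genotypes share no replicate number. Between the times, cKO 2 and Het 1 each share one, and with the replicate block 0 members passed for time and the Trbv median was 0.24. Depth limits single Trav segments most, at 2094 to 3113 fragments of the chain per library.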

Other observations

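Segments of the other receptor classes were summed in the same way and are given as values. The 60 Traj segments, which lie between Trav and Trac, summed to 666 and 1329 FPKM in cKO 2 and cKO 4 against 566 and 979 FPKM in Het 1 and Het 3 at 72 h, and to 453 FPKM in cKO 2 against 637 in Het 1 at 48 h. The 14 Trbj segments summed to 699 and 1216 FPKM in cKO 2 and cKO 4 against 961 and 1529 FPKM in Het 1 and Het 3 at 72 h, and to 744 FPKM in cKO 2 against 751 in Het 1 at 48 h. Trbj thus had the same order by pair as Trbv, and Traj did not. At 72 h the 1 Trgv row was at 17.1 FPKM in cKO 2 and 9.15 in Het 1. In cKO 4 it was at 7.80 FPKM and in Het 3 at 2.01. At 48 h it was at 1.27 FPKM in cKO 2 and 1.77 in Het 1. The 6 Trdv rows summed to 1.99 to 5.10 FPKM over the libraries, and the 2 Trbd rows to 132 to 223 FPKM. J segments are short, and their FPKM depend strongly on the length used, so levels of J and V segments are not set against each other.

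Immunoglobulin segments stood apart in the libraries of cKO 2. The 185 annotated Ighv rows summed to 57.5 and 5.25 FPKM in cKO 2 and cKO 4 against 7.77 and 3.88 FPKM in Het 1 and Het 3 at 72 h, and to 27.2 FPKM in cKO 2 against 4.77 in Het 1 at 48 h. The 160 Igkv rows summed to 30.002 and 3.51 FPKM in cKO 2 and cKO 4 against 0.797 and 0.680 FPKM in Het 1 and Het 3 at 72 h, and to 20.4 FPKM in cKO 2 against 3.40 in Het 1 at 48 h. The 3 Iglv rows summed to 55.2 FPKM in cKO 2 at 72 h and to 13.9 FPKM in cKO 2 at 48 h. In the other libraries they summed to at most 2.61 FPKM. No test was made of these sums.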
